A study of Mus musculus with 8 samples.

Results

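The 10 genes described here encode the NF-kB transcription factor and the proteins that switch it off or respond to it. They were named by function, with earlier results of these data known, and are 10 of the 55421 genes in the deposited count table. Nfkb1, Nfkb2, Rel, Rela and Relb encode the 5 subunits. Nfkbia and Nfkbie encode inhibitors that hold NF-kB dimers in the cytoplasm. Tnfaip3, Birc3 and Traf1 encode regulators of the signal upstream of the dimers. All 10 genes passed the filter on low counts.

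The study profiled RNA of germinal centre B cells, which are antigen-activated B cells that mutate and select their receptors, from mice with both copies of Smarca4 or with 1 copy lost. Smarca4 (Brg1) is the ATPase of the SWI/SNF complexes, which move nucleosomes. The 4 groups were Smarca4+/+ CB, Smarca4+/- CB, Smarca4+/+ CC and Smarca4+/- CC, each with 2 libraries. CB and CC were taken to stand for centroblasts, the dividing cells of the dark zone, and centrocytes, the cells under selection in the light zone. All mice were C57BL/6, 8 to 10 weeks old, and all were immunized and their spleens taken on day 10. The germinal centre cells were enriched on magnetic beads that carry PNA, a lectin. The labels name neither the immunogen, nor the way in which CB and CC were parted, nor the cells in which the Smarca4 allele was lost. They also leave unsaid whether 2 replicates were 2 mice. Each p thus reflects library-to-library spread, fitted over all 4 groups together, part or all of which may be technical.

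In resting B cells NF-kB dimers are held in the cytoplasm by inhibitors. Signals from the B cell receptor, Toll-like receptors or CD40 lead to loss of the inhibitors, and dimers of Rel, Rela and the Nfkb1 product p50 enter the nucleus. A slower branch, driven by CD40 and the BAFF receptor, processes the Nfkb2 product p100 to p52, which pairs with Relb. NF-kB raises transcription of several of its own subunits and inhibitors, which closes feedback loops. In germinal centres the pathway is known to be more active in the light zone, where B cells meet antigen and T cell help.

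Depth differed strongly between the fractions, with totals of 18357578 to 24341805 counts for CB and 526353 to 837558 for CC. Depth and fraction cannot be told apart in this design. The Smarca4 gene itself had 897 and 1002 CPM (counts scaled to a common library size after TMM) in the wild-type CB libraries and 734 and 702 with 1 copy lost, and in CC 322 and 316 against 244 and 311. Both libraries with 1 copy lost thus lay below both wild-type libraries in each fraction. Of all genes tested, 15.8% were separated that way in CB and 14.4% in CC. The nearest pair in CC, at 316 and 311 CPM, rests on 193 and 262 counts. The log2 difference was -0.40 (SE 0.17) for CB and -0.20 (SE 0.18) for CC, and neither passed the test (adjusted p = 1 and 0.607). The fraction labels were set beside marker genes. The marker lists were chosen with earlier results of these data known, so they are no independent check of the labels. Summed light zone markers were at 235 to 298 CPM in CB and 711 to 917 in CC, where 5 of 5 passed the test as higher. Summed dark zone markers were at 959 to 1128 CPM in CB and 268 to 494 in CC, where 5 of 6 passed as lower. Germinal centre B cell markers summed to 2040 to 2091 CPM in CB and 960 to 1523 in CC (4 of 7 lower). The CC libraries also held more RNA of other cell types. Macrophage and monocyte markers summed to 45.8 to 220.8 CPM in CB and 1467 to 3291 in CC (10 of 10 higher), T cell markers to 111 to 136 and 209 to 577 (9 of 10 higher), erythroid markers to 5.04 to 10.4 and 102 to 690 (5 of 6 higher), and endothelial and stromal markers to 40.4 to 53.6 and 98.4 to 183 (4 of 5 higher). Neutrophil markers reached 228 CPM in the first Smarca4+/- CC library and were at 0 in the second Smarca4+/+ CC library. In CB, Cd3e and Il7r were at 0 in both Smarca4+/+ libraries and Marco was at 0 in both Smarca4+/- libraries. Most of the T cell sum in CB was Lck, at 108 to 132 CPM there and 100 to 204 in CC. Cd3e was at 0 to 0.576 CPM in CB and 7.11 to 98.1 in CC. Markers this low in CB could pass the filter on low counts through their CC libraries, so the counts of markers called higher are descriptions. Several of the 10 genes are also expressed in macrophages and T cells, and the part of those cells in the differences between CC and CB was not tested. In such bulk libraries, fewer cells of a type and less RNA per cell cannot be told apart.

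The genes lie on 9 chromosomes of the mouse build mm10. Nfkb1 is at chr3:135584655-135691547 on the minus strand, Nfkb2 at chr19:46304320-46312385 on the plus strand, Rel at chr11:23736847-23770970 on the minus strand, Rela at chr19:5637483-5648130 on the plus strand and Relb at chr7:19606217-19629438 on the minus strand. Of the inhibitors, Nfkbia is at chr12:55489410-55492647 on the minus strand and Nfkbie at chr17:45555703-45563169 on the plus strand. Tnfaip3 is at chr10:19000910-19015657, Birc3 at chr9:7848699-7873186 and Traf1 at chr2:34941750-34961772, all on the minus strand. Counts cover exons. The span of Nfkb2 overlaps the opposite-strand genes AC114539.1 and Psd by 1292 and 299 bases. These took 540 and 130 counts over the 8 libraries. The span of Nfkb1 overlaps Gm43430 on the same strand by 3897 bases, and Gm43430 took 511 counts. Overlaps were taken from whole gene spans, and how much of them is exon was not tested. Without the strand setting, reads in any exon bases shared by opposite-strand genes cannot be assigned.

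Because feedback by NF-kB acts through kappaB motifs, the 10-base sites that its dimers bind, the DNA just before the start sites was read from the RefSeq promoter table (build GRCm38.p6). It held windows for 8 of the 10 genes, 11 windows in all. No window was found there for Nfkb1 or Relb. The kappaB consensus was searched on both strands in the 250 bases before each start. A match was found for 5 of the 8 genes, Nfkb2, Rel, Nfkbia, Nfkbie and Tnfaip3, and for 8.23% of the 27025 genes in the table. Of all 32851 windows in the table, 7.25% held a match. The sequences below run 5′ to 3′ on the gene's strand, with kappaB matches in capitals. They are shown because 3 of these 5 genes, Nfkb2, Nfkbia and Tnfaip3, rose between the fractions below, and Rela is added as a subunit gene with no match. Nfkbia has its match 29 to 20 bases before the start, in a window on the minus strand at chr12:55492648-55492897.
Nfkbia: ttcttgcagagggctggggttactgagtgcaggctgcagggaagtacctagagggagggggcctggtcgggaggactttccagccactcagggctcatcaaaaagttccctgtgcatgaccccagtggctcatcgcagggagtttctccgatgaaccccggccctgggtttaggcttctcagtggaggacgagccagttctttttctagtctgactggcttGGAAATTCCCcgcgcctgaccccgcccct
Nfkbie has its match 106 to 97 bases before the start, in a window on the plus strand at chr17:45555450-45555699.
Nfkbie: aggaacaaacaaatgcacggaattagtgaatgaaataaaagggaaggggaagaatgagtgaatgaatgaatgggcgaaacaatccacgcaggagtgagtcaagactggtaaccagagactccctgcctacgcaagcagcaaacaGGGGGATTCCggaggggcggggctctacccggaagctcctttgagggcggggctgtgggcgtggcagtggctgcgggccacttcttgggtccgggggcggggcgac
Rel has 2 overlapping matches, 92 to 83 and 91 to 82 bases before the start, in a window on the minus strand at chr11:23770971-23771219.
Rel: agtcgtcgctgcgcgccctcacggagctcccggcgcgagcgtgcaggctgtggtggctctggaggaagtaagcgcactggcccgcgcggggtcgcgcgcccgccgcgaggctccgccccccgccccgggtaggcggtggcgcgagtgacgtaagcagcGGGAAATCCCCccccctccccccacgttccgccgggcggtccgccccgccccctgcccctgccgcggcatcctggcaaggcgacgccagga
Rela has none in the stretch of its window before its first exon, on the plus strand at chr19:5637291-5637482.
Rela: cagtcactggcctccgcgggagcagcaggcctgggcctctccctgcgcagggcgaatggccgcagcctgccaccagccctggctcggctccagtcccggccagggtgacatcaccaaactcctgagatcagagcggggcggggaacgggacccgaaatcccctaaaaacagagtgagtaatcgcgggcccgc
Nfkb2 has matches in each of its windows, since several of its transcripts start apart from each other. A pair of stretches from them lie on the plus strand at chr19:46304688-46304717 and chr19:46305695-46305724.
Nfkb2 first stretch: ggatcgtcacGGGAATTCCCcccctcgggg
Nfkb2 second stretch: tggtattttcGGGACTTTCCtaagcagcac
Tnfaip3 has matches 125 to 116 and 12 to 3 bases before its start, on the minus strand at chr10:19015516-19015545 and chr10:19015411-19015440.
Tnfaip3 first stretch: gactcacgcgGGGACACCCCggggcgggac
Tnfaip3 second stretch: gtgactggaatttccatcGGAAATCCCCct
Windows of Birc3 and Traf1 held no match, and neither did the other Tnfaip3 window, at chr10:19011964-19012213. The starts are those of RefSeq. The Tnfaip3 matches and both Nfkb2 stretches lie before such a start but within the gene spans given above. A match describes letters and no binding was measured, and a window without a match says nothing about sites elsewhere.

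The first comparison asked how the genes differ between the germinal centre fractions. Averaged over the genotypes, 5 of the 10 genes rose from CB to CC and none fell: the subunit genes Nfkb1 and Nfkb2, the inhibitor gene Nfkbia, and the feedback genes Tnfaip3 and Birc3. Over all 12997 genes tested, 13.6% passed the test in either direction, 6.6% as higher in CC and 6.96% as lower. The median log2 change of the 10 genes was 0.79, against -0.24 for all genes tested. All 4 CC libraries lay above all 4 CB libraries for 5 of the 10 genes (Nfkb1, Nfkb2, Rel, Nfkbia and Tnfaip3), and 6.91% of all genes were separated that way. The values that follow are CPM, with replicates 1 and 2 in order.

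**Figure D1:**
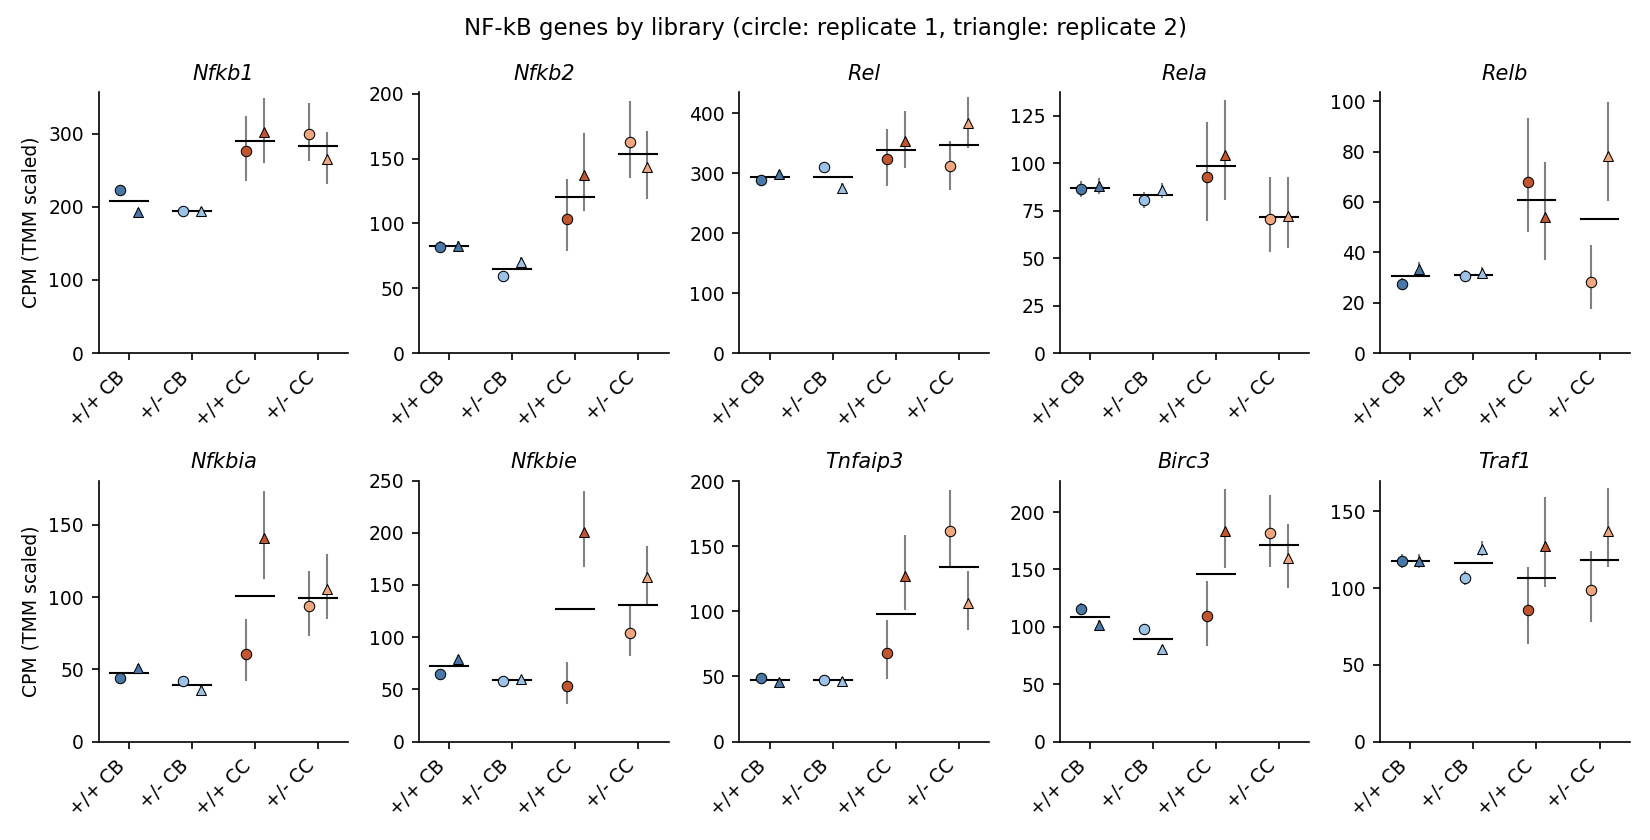
Level of each of the 10 genes (CPM, TMM scaled, linear axis from 0) in the 8 libraries, by group; circles are replicate 1 and triangles replicate 2. Nfkb2, Nfkbia and Tnfaip3 lie higher in all 4 CC libraries than in all 4 CB libraries, while Rela and Traf1 overlap.

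Among the subunits, Nfkb2, the p100 precursor of the slower branch, had the clearest difference. It was at 82.1 and 82.8 CPM for Smarca4+/+ CB, 59.5 and 70.3 in Smarca4+/- CB, 103.6 and 137.3 in Smarca4+/+ CC, and 162.9 and 143.5 in Smarca4+/- CC. The lowest CC library, from Smarca4+/+, was above the highest CB library, and both Smarca4+/- CC libraries were above both Smarca4+/+ CC libraries. Averaged over genotypes, Nfkb2 rose 1.86-fold (log2 change 0.89, SE 0.17, adjusted p = 0.00615). Nfkb1, which encodes the p105 precursor of p50, was at 222.9 and 193.1 CPM for Smarca4+/+ CB, 194.9 and 194.0 in Smarca4+/- CB, 277.0 and 302.4 in Smarca4+/+ CC, and 300.4 and 265.6 in Smarca4+/- CC. The fractions did not overlap, and genotypes lay side by side within each. Nfkb1 rose 1.42-fold (log2 change 0.51, SE 0.13, adjusted p = 0.0276). That call rests on every CB library: the adjusted p was 0.0679 without the first Smarca4+/+ CB library, 0.12 without the second, 0.0779 without the first Smarca4+/- CB library and 0.0818 without the second. It was 0.0543 without the second Smarca4+/+ CC library, 0.0666 without the first Smarca4+/- CC library and 0.0642 by limma-voom.

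Rel, which encodes c-Rel, a subunit needed for B cell proliferation, was at 289.1 and 297.8 CPM for Smarca4+/+ CB, 309.9 and 275.5 in Smarca4+/- CB, 323.4 and 353.1 in Smarca4+/+ CC, and 311.1 and 382.9 in Smarca4+/- CC. All CC libraries lay above all CB libraries by a narrow margin, and the difference did not pass the test (log2 difference 0.23, 95% interval -0.06 to 0.51, adjusted p = 0.282). Rela, which encodes p65 with its strong activation domain, was at 86.4 and 88.0 CPM for Smarca4+/+ CB, 80.7 and 85.8 in Smarca4+/- CB, 92.9 and 104.6 in Smarca4+/+ CC, and 70.8 and 72.3 in Smarca4+/- CC. Its CC libraries lay on both sides of the CB libraries, the Smarca4+/+ ones above and the Smarca4+/- ones below. The averaged log2 difference of Rela was -0.02 (95% interval -0.40 to 0.36, adjusted p = 0.954), and its sign depends on the scaling (0.10 with RLE and 0.14 with total counts). Relb, the partner of p52, was at 27.4 and 33.4 CPM for Smarca4+/+ CB, 30.5 and 31.7 in Smarca4+/- CB, 67.9 and 53.9 in Smarca4+/+ CC, and 28.0 and 78.2 in Smarca4+/- CC. The first Smarca4+/- CC library, with 21 Relb counts, lay among the CB libraries and the other 3 CC libraries above them. The averaged log2 difference of Relb was 0.89 (SE 0.31, adjusted p = 0.078). It was 1.15 (adjusted p = 0.0135) without the first Smarca4+/- CC library and 0.41 (0.325) without the second.

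Both inhibitor genes had higher means in CC. Nfkbia, which encodes IkB-alpha, the fast-resynthesised inhibitor, was at 44.1 and 50.8 CPM for Smarca4+/+ CB, 42.0 and 35.9 in Smarca4+/- CB, 60.8 and 140.6 in Smarca4+/+ CC, and 93.5 and 105.5 in Smarca4+/- CC. All CC libraries lay above all CB libraries, and the Smarca4+/+ CC replicates, with 34 and 86 counts, lay farther apart than the Smarca4+/- ones. Nfkbia rose 2.33-fold (log2 change 1.22, SE 0.25, adjusted p = 0.00801), with an adjusted p of 0.0542 when the second Smarca4+/- CB library was left out. Nfkbie, which encodes IkB-epsilon, was at 65.0 and 79.4 CPM for Smarca4+/+ CB, 57.6 and 59.5 in Smarca4+/- CB, 53.6 and 201.1 in Smarca4+/+ CC, and 104.2 and 157.7 in Smarca4+/- CC. The first Smarca4+/+ CC library was below every CB library and the second was the highest of all, on 30 and 123 counts. Exact Poisson 95% intervals, which cover counting error only, were 36.2 to 76.5 CPM and 167 to 239.9 CPM for that pair, so the replicates differ beyond counting error. The averaged log2 difference of Nfkbie was 1.00 (SE 0.31, adjusted p = 0.0587). It passed in 8 of 18 other settings, and it was 1.31 (adjusted p = 0.00209) without the first Smarca4+/+ CC library and 0.35 (0.337) without the second.

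Of the regulators upstream, Tnfaip3, which encodes the ubiquitin-editing enzyme A20, had the largest averaged change of the 10 genes. It was at 48.8 and 45.9 CPM for Smarca4+/+ CB, 47.5 and 46.4 in Smarca4+/- CB, 67.9 and 127.5 in Smarca4+/+ CC, and 161.6 and 106.7 in Smarca4+/- CC. The 4 CB libraries lay close together, and every CC library was above them. Tnfaip3 rose 2.43-fold (log2 change 1.28, SE 0.23, adjusted p = 0.00397). Birc3, which encodes the ubiquitin ligase cIAP2, was at 115.8 and 101.7 CPM for Smarca4+/+ CB, 97.9 and 80.4 in Smarca4+/- CB, 109.0 and 183.1 in Smarca4+/+ CC, and 181.6 and 160.1 in Smarca4+/- CC. The first Smarca4+/+ CC library lay within the CB range and the other 3 CC libraries above it. Birc3 rose 1.61-fold (log2 change 0.68, SE 0.19, adjusted p = 0.0363). This call was lost without any 1 of the same 6 libraries as for Nfkb1, with adjusted p from 0.0735 to 0.135, and by limma-voom (0.0911). Without the second Smarca4+/+ CC library the Birc3 difference was 0.45. Traf1, which encodes an adaptor of TNF receptors that binds cIAP proteins, was at 117.6 and 117.7 CPM for Smarca4+/+ CB, 106.6 and 125.6 in Smarca4+/- CB, 85.8 and 127.5 in Smarca4+/+ CC, and 98.8 and 137.5 in Smarca4+/- CC. The fractions overlapped in both genotypes. The averaged log2 difference of Traf1 was -0.06 (95% interval -0.47 to 0.36, adjusted p = 0.871), and its sign turned with RLE (0.06) and total count scaling (0.10).

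**Figure D2:**
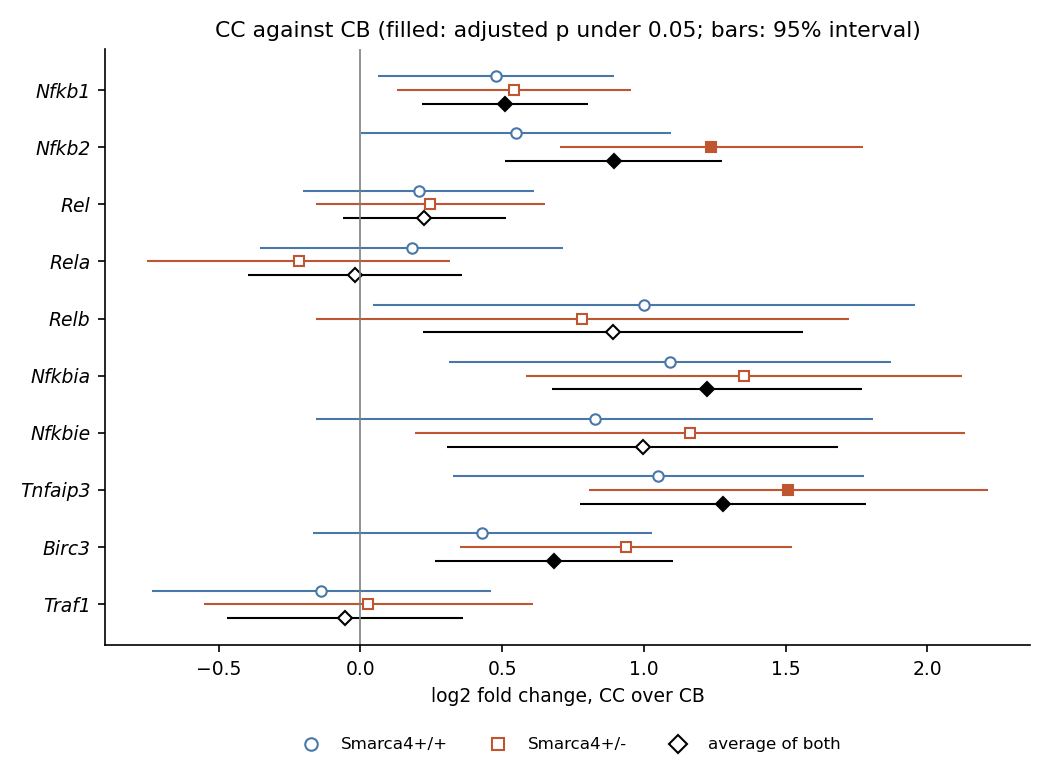
Log2 difference of CC against CB for each gene (x axis) in Smarca4+/+, in Smarca4+/- and averaged over both, with 95% intervals; filled points passed the edgeR test at an adjusted p under 0.05. Nfkb1, Nfkb2, Nfkbia, Tnfaip3 and Birc3 are filled in the average, Nfkb2 and Tnfaip3 in Smarca4+/-, and no gene in Smarca4+/+.

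Within each genotype fewer genes passed. In Smarca4+/+, 0 of the 10 genes passed with edgeR, where 7.49% of all genes did (3.72% higher and 3.76% lower). At an unadjusted p under 0.05 there were 5 (23.3% of all genes), with DESeq2 4 (16.7%) and with limma-voom 0 (5.39%). Nfkbia was at 1.09 (adjusted p = 0.091) and Tnfaip3 at 1.05 (adjusted p = 0.081), and 9 of 10 differences were positive, with a median of 0.51 against -0.19 for all genes. Without the first Smarca4+/+ CC library 3 genes passed (7.54% of all genes), Nfkbia at 1.56, Tnfaip3 at 1.42 and Nfkbie at 1.47. Without the second none passed (6.71% of all genes), with Nfkbia at 0.34, Tnfaip3 at 0.51 and Nfkbie at -0.44. In Smarca4+/-, 2 of the 10 genes rose, Nfkb2 (log2 change 1.24, SE 0.24, adjusted p = 0.0201) and Tnfaip3 (1.51, SE 0.32, adjusted p = 0.027), where 3.67% of all genes passed, 2.17% as higher and 1.5% as lower. Nfkbia was at 1.35 (adjusted p = 0.0602) and Birc3 at 0.94 (adjusted p = 0.0852). The median of the 10 genes in Smarca4+/- was 0.86, against -0.08 for all genes. The Nfkb2 call in Smarca4+/- was lost without either Smarca4+/- CB library (adjusted p 0.22 and 0.144) or the first Smarca4+/- CC library (0.13). For Tnfaip3 it was lost without the same libraries (0.254, 0.236 and 0.197) and without either Smarca4+/+ CB library (0.0549 and 0.055). The averaged calls for Nfkb2 and Tnfaip3 held under all 18 other settings run.

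Transcript levels per length of exon set the genes in order. In Smarca4+/+ CB the order was Rel (39.3 CPM per kb of exon, SD 0.825), Nfkbia (29.5, SD 2.96), Rela (28.4, SD 0.386), Nfkbie (23.7, SD 3.34), Birc3 (21.7, SD 1.99), Nfkb2 (18.0, SD 0.103), Nfkb1 (17.3, SD 1.75), Traf1 (13.3, SD 0.00614), Relb (7.83, SD 1.10) and Tnfaip3 (6.55, SD 0.282), each with n = 2. Nfkbia overlapped Rela, Nfkbie overlapped Birc3 and Nfkb2 overlapped Nfkb1 in that order, and the other neighbours were apart. In Smarca4+/- CB Rel again led at 39.2 CPM per kb and Tnfaip3 was last at 6.50, with Rela (27.1) ahead of Nfkbia (24.2). In CC, Nfkbia led in both genotypes, at 62.5 CPM per kb (SD 35.1) in Smarca4+/+ and 61.8 (SD 5.29) in Smarca4+/-. Rel came next, at 45.3 (SD 2.81) and 46.5 (SD 6.80). In Smarca4+/+ CC the 2 Nfkbia libraries spanned the Rel libraries, while in Smarca4+/- CC they were above them. Rela stood at 32.2 (SD 2.69) in Smarca4+/+ CC, between Nfkbie and Birc3, and at 23.3 (SD 0.357) in Smarca4+/- CC, below Birc3 and beside Nfkb1 (23.5, SD 2.04). Nfkb1 has 12061 exonic bases in the annotation, the most of the 10 genes, which lowers its value per length if most transcripts are shorter.

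**Figure D3:**
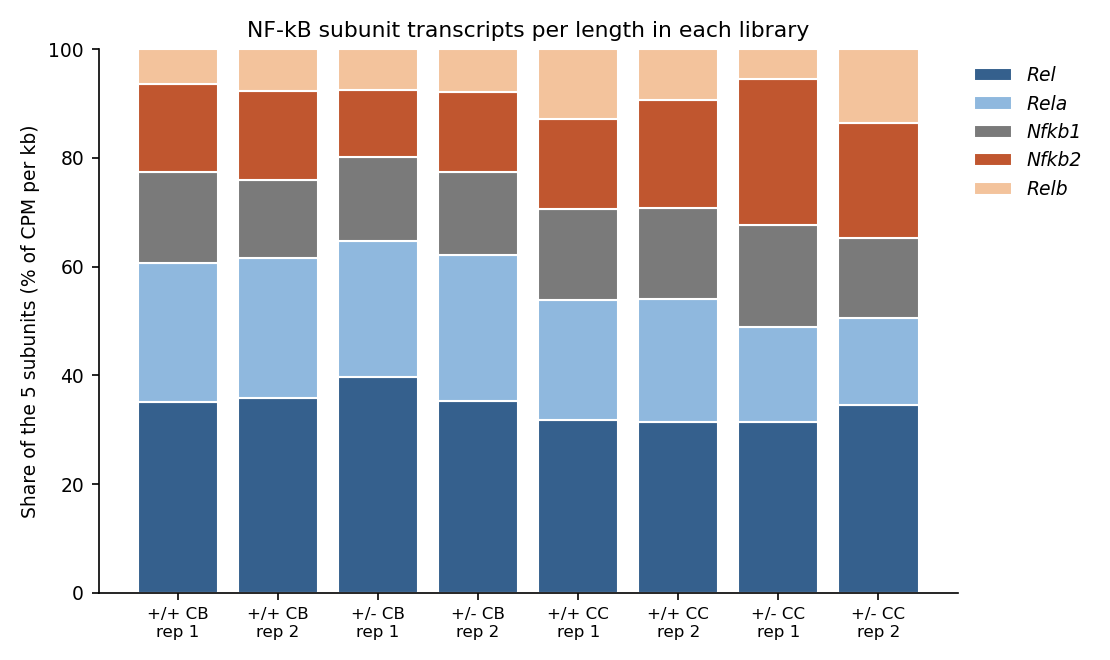
Share of each of the 5 subunit genes in their summed level per length (percent of CPM per kb, stacked bars to 100) in the 8 libraries. The Nfkb2 share is larger and the Rel and Rela shares smaller in every CC library than in every CB library.

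Among the 5 subunits alone, the mix of transcripts differed between the fractions. Rel took 35.1 to 39.6% of their summed CPM per kb in CB and 31.5 to 34.6% in CC, and Rela 25.1 to 26.7% and 15.9 to 22.7%. Nfkb2 took 12.4 to 16.3% in CB and 16.6 to 26.9% in CC. For these 3 genes the 4 CB and the 4 CC libraries did not overlap, while the shares of Nfkb1 (14.4 to 16.8% and 14.9 to 18.8%) and Relb (6.39 to 7.83% and 5.45 to 13.6%) did. The margins were narrow for Rel and for Nfkb2. The lowest Nfkb2 share in CC, in the first Smarca4+/+ library, rests on 58 counts, with an exact Poisson 95% interval of 44.0 to 75.0 counts. No share over all genes was taken for such separations. The summed level of the 5 subunits was 104.4 to 111.2 CPM per kb in CB and 132.4 to 150.3 in CC. Shares sum to 100 within a library, so they do not move independently, and no test was made of them.

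Ratios to Rela were taken within the same library, so they do not depend on the scaling between libraries. Nfkbia per length stood at 0.798 to 1.10 times Rela in CB and 1.25 to 2.78 times in CC. Nfkb2 stood at 0.494 to 0.637 and 0.748 to 1.54 times Rela, and Tnfaip3 at 0.222 to 0.251 and 0.311 to 0.971 times. All 4 CC libraries were above all 4 CB libraries for these and for Nfkb1 and Relb, and not for Rel, Nfkbie, Birc3 or Traf1. For Relb, whose CPM overlapped, the margin was narrow, at 0.313 in the first Smarca4+/- CC library against at most 0.300 in CB. Rel was separated by CPM and not by this ratio. No share over all genes was taken for such ratios, so these separations are descriptions. In CC the denominator rests on 52 to 64 Rela counts, and Rela was lower in Smarca4+/- CC, which raises every ratio there.

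**Figure D4:**
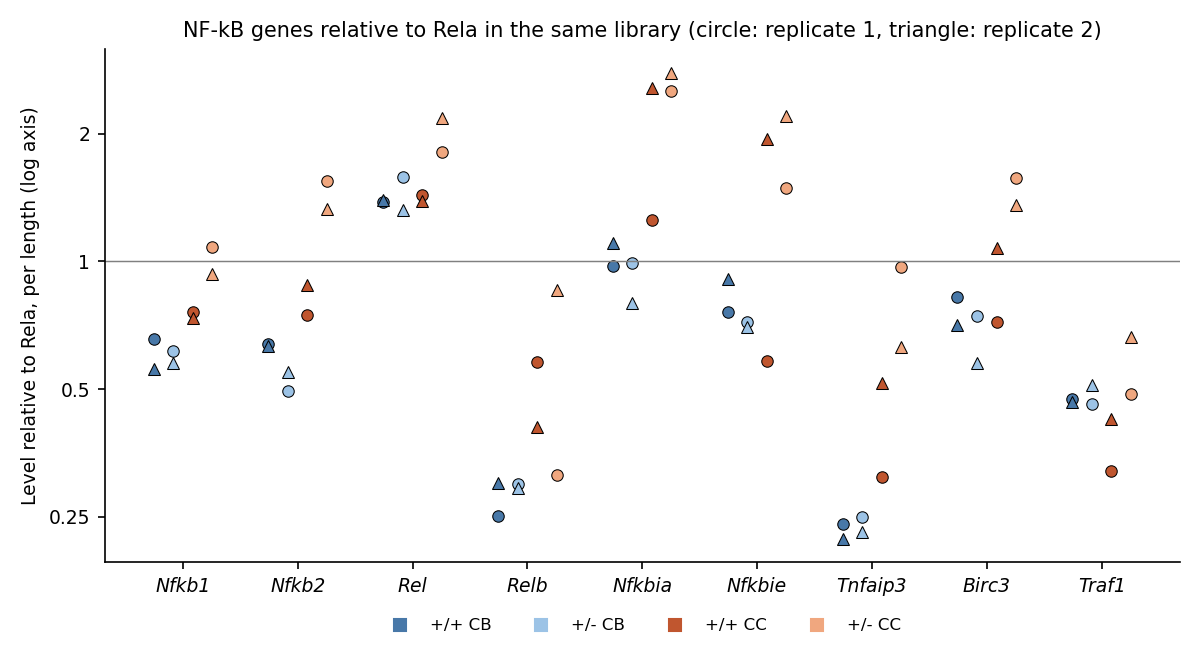
Level per length of each of the other 9 genes divided by that of Rela in the same library (ratio), by group; circles are replicate 1 and triangles replicate 2. For Nfkb1, Nfkb2, Relb, Nfkbia and Tnfaip3 every CC ratio lies above every CB ratio.

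The next comparison asked whether loss of 1 Smarca4 copy went with other levels of these genes. In CB, 0 of the 10 genes passed with edgeR, where 0% of all genes did. There were 0 at an unadjusted p under 0.05 (0.646% of all genes), 0 with DESeq2 (0.0231%) and 0 with limma-voom (0.0385%). The log2 differences of Smarca4+/- against Smarca4+/+ ran from -0.35 (Nfkb2, 95% interval -0.85 to 0.16) to 0.03 (Relb), and 9 of 10 were negative, 4 of them (Rel, Rela, Tnfaip3 and Traf1) changing sign with total count scaling. Both Smarca4+/- CB libraries lay below both Smarca4+/+ CB libraries for Nfkb2, Rela, Nfkbia, Nfkbie and Birc3, 5 of 10 genes, and 15.8% of all genes were separated that way. All 10 adjusted p were 1. The fit shares the spread of each gene over all 4 groups, and replicates correlated less in CC than in CB. Fitted on the CB libraries alone, the SE was smaller for all 10 genes, and none passed. It fell from 0.416 to 0.153 for Nfkbie, from 0.327 to 0.169 for Nfkbia and from 0.231 to 0.146 for Nfkb2.

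In CC, 0 of the 10 genes passed with edgeR, where 0.0231% of all genes did (3 genes). At an unadjusted p under 0.05 the count was 0 (15.2% of all genes), and it was 0 with DESeq2 (6.51%) and 0 with limma-voom (0%). Rela had the most negative log2 difference (-0.47, 95% interval -1.04 to 0.11, adjusted p = 0.404), and both its Smarca4+/- CC libraries lay below both Smarca4+/+ CC libraries. Tnfaip3 was at 0.45 (95% interval -0.30 to 1.19, adjusted p = 0.532), with overlapping libraries, and at 0.056 without the first Smarca4+/+ CC library and 0.97 without the second. Nfkb2 was at 0.34 (95% interval -0.22 to 0.91, adjusted p = 0.529), and its Smarca4+/- CC libraries lay above the Smarca4+/+ ones. These 2 separations, 1 lower and 1 higher, stand beside 14.4% and 18.1% of all genes separated lower and higher. The remaining genes ran from -0.18 (Relb) to 0.22 (Birc3), with overlapping libraries. The intervals for Relb (-1.20 to 0.83) and Nfkbie (-0.99 to 1.05) were the widest of the 10. T cell markers also differed between the genotypes in CC, at 515 and 577 CPM in Smarca4+/+ and 268 and 209 in Smarca4+/-, and macrophage and monocyte markers stood at 2870 and 2817 CPM in Smarca4+/+ and 3291 and 1467 in Smarca4+/-. The part of those cells in the genotype differences was not tested.

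**Figure D5:**
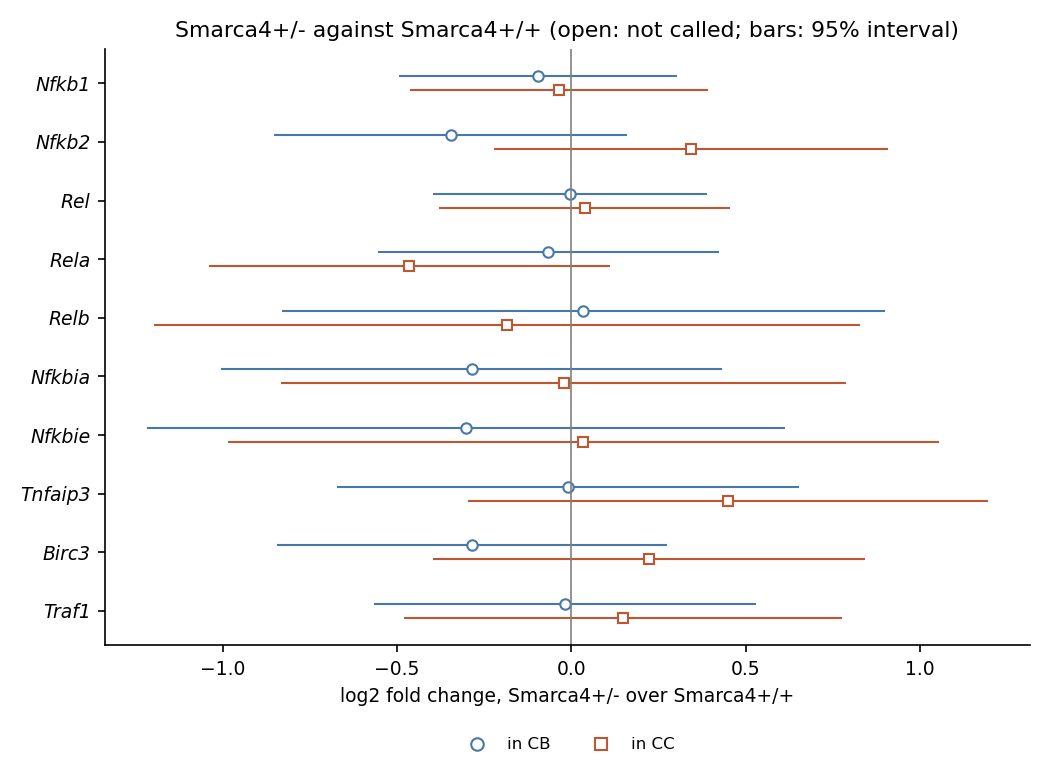
Log2 difference of Smarca4+/- against Smarca4+/+ for each gene (x axis) in CB and in CC, with 95% intervals; all points are open because none passed the edgeR test. Every interval spans 0, and the points run from -0.35 to 0.03 in CB and from -0.47 to 0.45 in CC.

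Whether the fractions differ by another amount in Smarca4+/- than in Smarca4+/+ was tested as an interaction. With edgeR 0 of the 10 genes passed, where 0% of all genes did, and there were 0 at an unadjusted p under 0.05 (9.19% of all genes), 0 with DESeq2 (2.61%) and 0 with limma-voom (0%). Nfkb2 came closest, with a CC against CB difference larger by 0.69 on the log2 scale in Smarca4+/- (SE 0.35, 95% interval -0.07 to 1.45, adjusted p = 0.565). Birc3 was at 0.51, Tnfaip3 at 0.46 and Rela at -0.40, and the median of the 10 genes was 0.21 against 0.10 for all genes. Nfkb2 and Tnfaip3 passed in Smarca4+/- and not in Smarca4+/+, but their difference between the genotypes did not pass.

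The wider pathway was read from a list of 83 other genes, of which 75 passed the filter. Averaged over genotypes, 15 of the 75 rose in CC, 6 fell and 54 did not pass, against 6.6% of all genes higher and 6.96% lower. The median log2 change of the 75 was 0.18, against -0.24 for all genes. Of 13 receptor genes 4 rose and 1 fell. Tnfrsf1a, a TNF receptor, was at 0.280 to 1.15 CPM in CB and 9.49 to 36.0 in CC (adjusted p = 0.000455). It was near 0 in CB, so no fold is given. Tnfrsf1a is expressed in macrophages, whose markers also rose in CC, and the part of those cells in its difference was not tested. Named after their values were seen, Tnfrsf1b rose (log2 change 1.26) and Cd79b, a chain of the B cell receptor, fell (-0.44). The other 2 receptor genes that passed were Ltbr (0 to 0.373 CPM in CB and 0 to 22.9 in CC) and Tlr7 (0 to 2.52 and 2.37 to 53.4). Both were at or near 0 in CB and overlapped between the fractions, so no fold is given for them. Genes this low in CB could pass the filter on low counts through their CC libraries. The count of 4 that rose, the total of 15 and the median of the 75 take them in, so all are descriptions. Cd40 did not pass (log2 difference 0.88, adjusted p = 0.0518). Of 25 adaptor and kinase genes none rose and 2 fell, among them Traf5. Traf5, which encodes an adaptor of TNF receptors, was at 73.7 to 94.8 CPM in CB and 29.6 to 59.0 in CC (log2 change -1.02, SE 0.20, adjusted p = 0.00666).

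Of 13 other inhibitor genes 1 rose and 1 fell. Nfkbid, which encodes the nuclear IkB protein IkBNS, was at 28.9 to 34.8 CPM in CB and 64.3 to 94.8 in CC and rose in both genotypes (averaged log2 change 1.38, SE 0.21, adjusted p = 0.00158). Otulin, which removes linear ubiquitin chains, was at 115.0 to 118.9 CPM in CB and 58.8 to 62.1 in CC (log2 change -0.94, SE 0.17, adjusted p = 0.00457), with all CC libraries below all CB libraries. Of 24 other target genes 10 rose and 2 fell. Cd83 and Myc are among these 24 and also among the light zone markers above. Myc, the growth regulator of selected centrocytes, was at 23.8 to 28.9 CPM in CB and 90.8 to 154 in CC (log2 change 2.22, SE 0.20, adjusted p = 0.000108). Irf4, a factor of plasma cell fate, rose by 1.51 (SE 0.24, adjusted p = 0.00174), Slfn2 by 1.56 (SE 0.25, adjusted p = 0.00187) and Cd83, a light zone marker, by 0.93 (SE 0.18, adjusted p = 0.00614) on the log2 scale. Of the genes that fell, Gadd45b (log2 change -1.12), a stress response gene, was named after its value was seen. Pim1, a survival kinase, was at 277.6 to 316 CPM in CB and 114 to 206 in CC (log2 change -1.05, SE 0.18, adjusted p = 0.0033). Map3k7, which encodes the kinase TAK1, fell in Smarca4+/+ (log2 change -1.40, adjusted p = 0.0258), with 39.3 and 26.2 CPM in Smarca4+/+ CC and 77.5 and 106.7 in Smarca4+/- CC. In Smarca4+/+ 6 of the 75 rose and 4 fell, beside 3.72% and 3.76% of all genes, and in Smarca4+/- 5 rose and 1 fell, beside 2.17% and 1.5%. The counts that rose may take in genes near 0 in CB and are descriptions as well. For genotype in CB, genotype in CC and the interaction, 0 of the 75 passed with edgeR, with 0, 12 and 6 at an unadjusted p under 0.05, beside 0.646%, 15.2% and 9.19% of all genes. With DESeq2 the counts were 0, 6 and 1 (Map3k7, named after its value was seen), beside 0.0231%, 6.51% and 2.61% of all genes, and with limma-voom 0 for each.

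The genes whose levels followed Nfkb1 and Nfkb2 most closely over the 8 libraries were found by the root mean square difference of centred log2 CPM among 6137 genes. For Nfkb1 they were Ptprc (0.0773), which encodes the leukocyte phosphatase CD45, Rreb1 (0.0853) and Nvl (0.0983). Ptprc was at 1011 to 1143 CPM in CB and 1343 to 1599 in CC. For Nfkb2 they were Adamts10 (0.0713), the nuclear noncoding RNA Malat1 (0.123) and the kinase gene Sik1 (0.176). Malat1 was at 3004 to 4189 CPM in CB and 5968 to 8354 in CC, with its 2 highest values, as for Nfkb2, in the Smarca4+/- CC libraries. Depth changes with fraction over these 8 libraries, and the likenesses are descriptions.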

How the data were processed

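RNA was sequenced from 8 libraries, 2 in each of 4 groups by Smarca4 genotype and fraction. Per the labels, libraries were made from total RNA after removal of ribosomal RNA. The deposited values are raw read counts per gene, and the submitters' processing notes list, without roles, STAR, featureCounts, Subread, FastQC, R 4.2.1 and the mouse build mm10. Other versions, the strand setting and the rule for multi-mapped reads were not given in the sources used here. Exon length in bases, the other unit in the deposited file, served only for CPM per kb.

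In R 4.3.3 with edgeR 4.0.16, filterByExpr (minimum count 10, minimum total 15) kept 12997 genes, TMM scaled the libraries, and 1 quasi-likelihood fit with 4 group means took in every library, leaving 4 residual degrees of freedom. The 6 comparisons were tested 2-sided with Benjamini-Hochberg adjustment over all genes, and a gene was called at an adjusted p under 0.05. Standard errors (SE) came from the log2 fold change and its F statistic. The fit was tested on simulated data. CC counts of the 10 genes were 21 to 323 per library, against 539 to 6381 in CB, so CC values are the less precise. Replicates correlated at 0.964 and 0.979 in CB and at 0.738 and 0.751 in CC (log2 CPM over genes). Rows of ribosomal RNA loci held 17.4 to 31.1% of the counts.

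Other settings were DESeq2 1.42.0, limma-voom (limma 3.58.1), other scalings and filters, replicate blocks, thinned CB counts, fits on the compared groups alone, and each library left out. The 10 genes, although named by function, and the lists were chosen with earlier results of these data known. All 10 genes are named in every comparison. Of the other pathway genes the 8 with the smallest p among those called are named per comparison, and for Nfkb1 and Nfkb2 the 3 closest profiles among genes averaging 20 CPM or more. Of the 2 adaptor and kinase genes that fell averaged over genotypes, 1 is not reported here.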

Additional observations from a re-analysis of the deposited data

How the results depend on the processing

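Averaged over genotypes, 5 of the 10 genes passed, 8 with DESeq2, 3 with limma-voom and 2 to 6 with a library left out. In Smarca4+/+ 0 passed, 4 with DESeq2, 2 with no low count filter, 2 with CB thinned and 0 to 3 with a library left out. In Smarca4+/- 2 passed, 5 with DESeq2, 5 with no filter and 0 to 5 with a library left out. For genotype in CB, genotype in CC and the interaction the count was 0 in all settings run. The replicate numbers were not shown to pair libraries, since correlations of replicate differences between groups ran from -0.046 to 0.0527. With a replicate block 6 genes passed averaged over genotypes, and with a block within genotype 6 did, with 5 in Smarca4+/- against 2 without it. Averaged, Nfkbie passed with either block (adjusted p 0.0479 and 0.00523) and not without (0.0587). Over all genes, 1763 passed averaged over genotypes (1051 to 2806 over settings, 612 to 2303 with a library left out), 973 in Smarca4+/+ (292 to 2167, 222 to 1413), 477 in Smarca4+/- (285 to 1487, 0 to 932), 0 for genotype in CB (0 to 13, 0 to 1), 3 for genotype in CC (0 to 846, 0 to 3) and 0 for the interaction (0 to 339, 0 to 1). The median of all genes, averaged over genotypes, moved from -0.24 to -0.12 with RLE and -0.08 with total count scaling. Signs turned as follows, all for differences that did not pass, and the cause was not tested. For genotype in CB, total count scaling gave Rel 0.073, Rela 0.0015, Tnfaip3 0.059 and Traf1 0.045, no filter Rel 0.0051, and thinning Relb -0.030. For genotype in CC, Nfkbia was at 0.077 with limma-voom, 0.015 with the replicate block and 0.066 with the block within genotype. In Smarca4+/+ Traf1 was at 0.046 with total count scaling and 0.031 thinned, and in Smarca4+/- at -0.0080 with no filter. Averaged, Rela was at 0.10 with DESeq2, 0.10 with RLE, 0.14 with total counts, 0.081 with the stricter filter and 0.083 thinned, and Traf1 at 0.066, 0.065, 0.097, 0.043 and 0.16. For the interaction, Rel was at -0.034 with total counts and Nfkb1 at -0.021 thinned. With a library left out, genotype in CB ran from -0.089 to 0.083 for Rel, -0.12 to 0.20 for Relb, -0.040 to 0.022 for Tnfaip3 and -0.14 to 0.097 for Traf1. Genotype in CC ran from -0.13 to 0.039 for Nfkb1, -0.13 to 0.17 for Rel, -1.13 to 0.36 for Relb, -0.51 to 0.71 for Nfkbia, -0.63 to 1.29 for Nfkbie, -0.11 to 0.64 for Birc3 and -0.13 to 0.46 for Traf1. CC against CB in Smarca4+/+ ran from -0.44 to 1.47 for Nfkbie, -0.0084 to 0.74 for Birc3 and -0.47 to 0.11 for Traf1, in Smarca4+/- from -0.18 to 1.31 for Relb and -0.26 to 0.22 for Traf1, and averaged from -0.081 to 0.045 for Rela and -0.23 to 0.057 for Traf1. The interaction ran from -0.039 to 0.15 for Nfkb1, -0.13 to 0.17 for Rel, -1.17 to 0.32 for Relb, -0.23 to 0.99 for Nfkbia, -0.33 to 1.58 for Nfkbie and -0.11 to 0.47 for Traf1. Where leaving out a library left 1 in a group, that library was assumed to vary like the others. The genotype comparison in CC rests on 21 to 323 counts per gene and library. Its 95% intervals ran from -0.38 to 0.46 for Rel, the narrowest, to -0.99 to 1.05 for Nfkbie, the widest. The SE of the 10 genes ran from 0.190 to 0.464 there and from 0.179 to 0.417 for genotype in CB, where counts were higher. The part of counting error in these SE was not tested.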
